A study of Mus musculus with 3 samples.

Results

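The genes described here are 10 genes of prostaglandin synthesis and reception: the phospholipase Pla2g4a, the cyclooxygenases Ptgs1 and Ptgs2, the prostaglandin E synthases Ptges, Ptges2 and Ptges3, the prostacyclin synthase Ptgis, and the receptors Ptger2, Ptger4 and Ptgfr. They were chosen by name and matched by gene ID, and all 10 were found among the 16621 genes listed in at least 1 library. The study sequenced poly(A) RNA of cultured stem cells that had been isolated from the tail tendon of mice on the C57BL/6 background. The donors were 10 weeks old, and untreated confluent cells were collected at passage 4. There was 1 library of wild-type cells (WT) and 2 libraries of cells carrying the ΔF508 mutation of the anion channel gene Cftr (DF508), a mutation best known from cystic fibrosis. No other allele or agent is given for any group, and it is not stated whether each DF508 library had its own animal or culture, whether animals were pooled, or whether a culture was 1 clone. The p-values therefore rest on a spread between samples that may be technical.

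Prostaglandins are short-lived lipid signals made from arachidonic acid. A phospholipase frees arachidonic acid from membranes, a cyclooxygenase turns it into prostaglandin H2, and a terminal synthase makes from that the product that leaves the cell and acts on a receptor of the same or a neighbouring cell. In tendon, prostaglandin E2 is known as a mediator of inflammation and of the response to mechanical load, and the cyclooxygenases are the targets of the non-steroidal anti-inflammatory drugs used for tendon pain.

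The library totals were 5298326 estimated reads in WT, 5241826 in DF508 replicate 1 and 5246886 in DF508 replicate 2. Levels are given as counts scaled to the library total (CPM) and, where genes are compared with each other, as FPKM, which also divides by gene length. Among the tendon markers, the type I collagen gene Col1a1 had 2305, 2776 and 2852 FPKM in WT and DF508 replicates 1 and 2. The tendon gene Tnmd had 70.2, 82.5 and 145 FPKM. The tendon transcription factor Scx was low, with 2.71, 1.88 and 2.22 FPKM. Of the 12 tendon and fibroblast markers listed, 7 were above WT in both DF508 libraries in CPM, as 43.3% of all genes tested were. A further 4 were below WT in both, as 29.6% were. DF508 replicate 2 stood apart in macrophage and myeloid markers, whose summed level over the 17 listed genes was 91.9 FPKM in WT, 143 FPKM in DF508 replicate 1 and 655 FPKM in DF508 replicate 2. Fewer cells of a type and less RNA per cell cannot be told apart in such bulk samples.

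The comparison of DF508 with WT asked whether mutant tendon cells differed from wild-type cells in these transcripts. Of the 10 genes, 9 passed the filter on low counts and none of these passed the threshold of an adjusted p of 0.05 (edgeR quasi-likelihood test with Benjamini-Hochberg adjustment over all 12888 genes tested), where 1.39% of all genes tested did. At an unadjusted p under 0.05 there was 1 of the 9, Ptgs2, against 11.9% of all genes tested, so the genes as a set were no more often at that level than others. DESeq2's Wald test and limma-voom called none either, with 0.671% and 1.47% of their genes called. DESeq2's Wald test gave no adjusted p for Ptges2 and Ptger4, which it could therefore not call. The likelihood ratio test of edgeR, which called 3.13% of genes, called Ptgs2. The median log2 fold change of the 9 genes was -0.13, with 7 negative and 2 positive, and the median over all genes tested was 0.01. The cyclooxygenase Ptgs2 was furthest from WT, followed by Ptgis in the other direction. In CPM, 4 genes (Pla2g4a, Ptgs2, Ptges2 and Ptgfr) were below WT in both DF508 libraries, as 29.6% of all genes tested were, and 2 (Ptges and Ptgis) were above WT in both, as 43.3% were. WT thus lay outside the DF508 pair for 6 of the 9 genes, against 72.9% of all genes tested, and for 2, Pla2g4a and Ptges, it was further from the nearer DF508 library than these were from each other, against 40.6%. WT lay between the DF508 libraries for Ptgs1, Ptges3 and Ptger4.

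**Figure D1:**
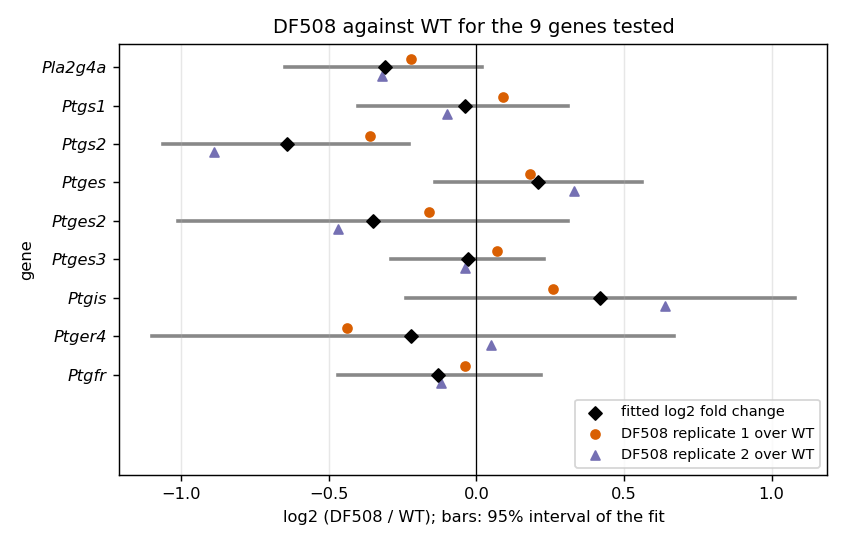
Log2 ratio of DF508 to WT for the 9 genes tested, ordered from arachidonic acid release to receptors. Black diamonds are the fitted log2 fold changes and grey bars their 95% intervals; orange circles and purple triangles are DF508 replicates 1 and 2 over WT from counts scaled to the library total. The Ptgs2 interval, from -1.06 to -0.23, is the one that lies below 0, and the other 8 intervals include 0.

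Per length, the genes kept a wide range of levels. Ptges3, which encodes the co-chaperone p23 also described as a cytosolic prostaglandin E synthase, was highest with 38.1, 39.9 and 37.0 FPKM in WT and DF508 replicates 1 and 2. Next came Ptgs2 with 13.6 to 25.1 FPKM over the 3 libraries, Ptgs1 with 12.6 to 14.3 FPKM and Pla2g4a with 12.0 to 14.9 FPKM. Ptgs2 was the highest of these in every library, though narrowly in DF508 replicate 2 (13.6, 12.6 and 12.0 FPKM). The order of Ptgs1 and Pla2g4a differed between libraries. The range of Ptges, 9.22 to 11.6 FPKM, lay below that of Pla2g4a and above that of Ptgfr, 7.85 to 8.56 FPKM. Ptgis, with 5.21 to 8.11 FPKM, overlapped both Ptgfr and Ptges2, with 4.18 to 5.78 FPKM. Ptger4 had 1.92 to 2.72 FPKM, and Ptger2 was listed at 0.05 FPKM in each library. By rank, Ptges3 stood above 88.6% to 89.6% of the genes listed in a library, and Ptger4 above 28.3% to 32.9%.

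**Figure D2:**
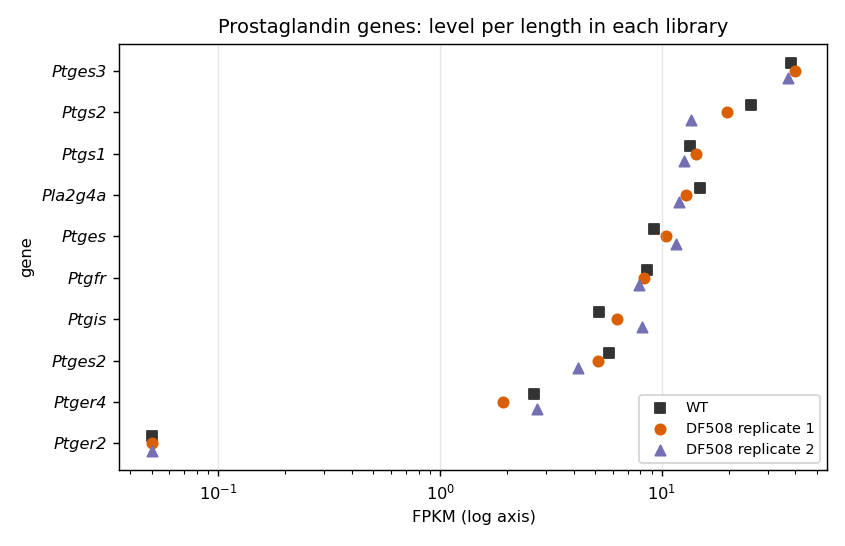
FPKM of the 10 genes in each library on a log axis, sorted by the mean of the 3 libraries. Squares are WT, circles DF508 replicate 1 and triangles DF508 replicate 2. The libraries lie close together for Ptges3 (37.0 to 39.9 FPKM) and apart for Ptgs2 (13.6 to 25.1 FPKM).

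Arachidonic acid release begins with Pla2g4a (gene ID 18783), the calcium-dependent cytosolic phospholipase A2 that prefers membranes rich in arachidonic acid. It had 225 counts (42.5 CPM) in WT, 191 (36.4 CPM) in DF508 replicate 1 and 179 (34.1 CPM) in DF508 replicate 2. Both DF508 libraries were below WT, and WT was further from the nearer DF508 library, by 6.03 CPM, than these were from each other, by 2.32 CPM. The fitted log2 fold change was -0.31 ± 0.15 (SE), with a 95% interval of -0.65 to 0.02, and the adjusted p was 0.46 (edgeR quasi-likelihood test). By counting error alone the ratio to WT was 0.858 (exact 95% Poisson interval 0.704 to 1.05) in replicate 1 and 0.803 (0.656 to 0.982) in replicate 2. These intervals cover counting error only, since the labels describe no molecular identifiers.

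The cyclooxygenases come next. Ptgs1 (gene ID 19224) encodes cyclooxygenase 1, the form that most tissues express at a steady level. Its level was 38.5 CPM in WT, 41.0 CPM in DF508 replicate 1 and 36.1 CPM in DF508 replicate 2, so WT lay between the DF508 libraries. Its fitted log2 fold change was -0.04 ± 0.16 (SE, adjusted p = 0.949 in edgeR's quasi-likelihood test), with a 95% interval of -0.4 to 0.31, and it was 0.00058 with library totals in place of TMM factors. The Ptgs1 estimate was not a whole number in at least 1 library, which means that some reads were shared with another gene or copy, and its level is uncertain to that extent.

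Ptgs2 (gene ID 19225) encodes cyclooxygenase 2, the inducible form, whose gene responds within hours or less to serum, cytokines and strain. It had 555 counts in WT, 428 in DF508 replicate 1 and 297 in DF508 replicate 2, all whole numbers, or 105, 81.7 and 56.6 CPM. The DF508 mean was 69.1 ± 17.7 CPM (SD, n = 2). WT was the highest library and DF508 replicate 2 the lowest, and the gap within the DF508 pair (25.0 CPM) was no smaller than that between replicate 1 and WT (23.1 CPM). The ratio to WT was 0.779 in replicate 1 (exact 95% Poisson interval 0.686 to 0.886) and 0.54 in replicate 2 (0.468 to 0.623), and replicate 2 over replicate 1 was 0.693 (0.596 to 0.806). Each of these differences, that within the DF508 pair included, was thus larger than counting error. The fitted log2 fold change was -0.64 ± 0.18 (SE), or 1.56-fold lower, with a 95% interval from 0.481 to 0.852 of the WT level. The unadjusted p was 0.00656 and the adjusted p 0.176 (edgeR quasi-likelihood test). Over the 11 alternatives with a test the adjusted p ran from 0.0439, in edgeR's likelihood ratio test, where Ptgs2 was called, to 0.883 in DESeq2's Wald test. With DF508 replicate 1 or replicate 2 as the lone mutant library the log2 value was -0.4 or -0.93. The library with the lowest Ptgs2 level, DF508 replicate 2, was also the one with the highest myeloid marker sum; the part of those markers in the Ptgs2 difference was not tested.

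**Figure D3:**
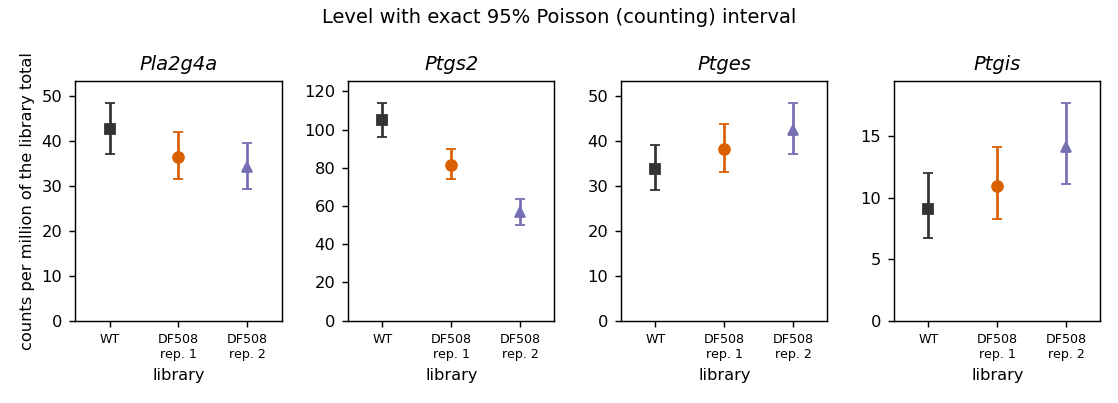
CPM for Pla2g4a, Ptgs2, Ptges and Ptgis, each panel with its own axis from 0. Bars are exact 95% Poisson intervals, which cover counting error only. The 3 Ptgs2 intervals do not overlap (96.2 to 114 CPM in WT, 74.1 to 89.8 and 50.3 to 63.4 CPM in the DF508 libraries), whereas those of Pla2g4a, Ptges and Ptgis overlap between WT and DF508 replicates. Overlap does not mean a difference within counting error. The intervals of the ratio of replicate 2 to WT left out 1 for Pla2g4a (0.656 to 0.982), Ptges (1.03 to 1.54) and Ptgis (1.07 to 2.29).

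Per length, the balance of the cyclooxygenases followed Ptgs2. The Ptgs2 level was 1.87 times that of Ptgs1 in WT (exact 95% interval from the counts 1.6 to 2.22), 1.37 times in DF508 replicate 1 (1.16 to 1.63) and 1.08 times in DF508 replicate 2 (0.901 to 1.31). Ptgs2 thus made up 65.2%, 57.8% and 51.9% of the summed cyclooxygenase FPKM. The WT and DF508 replicate 2 intervals did not overlap, those of WT and replicate 1 did, and with 1 WT library the ratio has no replicate check.

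The promoters of the cyclooxygenases are shown because these genes had different patterns in the same libraries, though neither passed the threshold. Some transcription factors known to act on Ptgs2 fell in DF508 (given further on), and their part in the Ptgs2 levels was not tested. The sequences are from RefSeq, build GRCm38.p6, run from 250 bases before to 50 after the annotated start, and are on the plus strand. Capitals mark matches on either strand to 8 motifs: the TATA box TATAAA, the cAMP response element core TGACG, the E-box CACGTG, the C/EBP motif TTNNGNAA, the AP-1 motif TGANTCA, the SP1 GC box GGGCGG, the EGR motif GCGNGGGCG and the NF-kB motif.
Ptgs2, chr1:150099781-150100080: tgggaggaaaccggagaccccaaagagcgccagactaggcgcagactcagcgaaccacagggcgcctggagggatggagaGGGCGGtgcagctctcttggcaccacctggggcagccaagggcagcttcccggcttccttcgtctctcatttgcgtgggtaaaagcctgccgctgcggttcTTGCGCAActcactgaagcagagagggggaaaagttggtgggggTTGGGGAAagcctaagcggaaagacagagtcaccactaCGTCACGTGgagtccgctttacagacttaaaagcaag
Ptgs1, chr2:36230176-36230475: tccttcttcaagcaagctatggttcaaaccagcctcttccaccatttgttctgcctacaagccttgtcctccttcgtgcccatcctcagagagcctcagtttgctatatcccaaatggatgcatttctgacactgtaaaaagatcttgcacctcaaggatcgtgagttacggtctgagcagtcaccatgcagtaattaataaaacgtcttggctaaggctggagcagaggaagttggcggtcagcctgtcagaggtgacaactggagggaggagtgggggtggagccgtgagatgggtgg

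In the Ptgs2 window, 4 of the 8 motifs matched, and the AP-1, NF-kB, EGR and TATA box motifs did not. C/EBP matched at 2 places, TTGCGCAA from -69 to -62 and TTGGGGAA from -25 to -18, counted from the annotated start. The cAMP response element core matched from 14 to 18 and overlapped an E-box match from 17 to 22, and a GC box matched from -170 to -165. Among 32851 promoter windows of the same length, C/EBP matched in 40.7%, the GC box in 35.7%, the cAMP response element core in 20.8% and the E-box in 7.15%. None of the 8 motifs matched in the Ptgs1 window; the TATA box matches in 13.6% of all windows, the AP-1 motif in 7.81%, the NF-kB motif in 8.46% and the EGR motif in 5.55%. These matches describe letters in a short window and do not show binding. The window and positions rest on the annotated start, which was not checked, and letters outside the window were not searched. Windows were found for 9 of the 10 genes, Ptgis being the one not matched.

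Ptgs2 transcripts are also known to be controlled after transcription through AU-rich elements, repeats of ATTTA behind the stop codon that proteins such as Zfp36 bind. Counted in the GENCODE M21 transcripts that match the deposited accessions, the 3′ untranslated part of Ptgs2 held 14 ATTTA pentamers in 2445 bases, more than in 97.4% of 12213 tested genes with a match, and its density of 5.73 per kilobase was above that of 96.4% of the genes with at least 200 bases there. Pla2g4a held 4 in 443 bases, a density of 9.03 per kilobase that was above that of 99.4% of those genes. Ptgs1, Ptges and Ptgis held none, Ptges2 and Ptges3 4 each, Ptger4 5 and Ptgfr 14. The median number over the tested genes was 2. By density, Ptger4 (4.06 per kilobase) was above 90.2% of the genes with at least 200 bases and Ptges3 (3.37) above 84.3%. Ptgfr (2.73) was above 76.1% and Ptges2 (1.16) above 43.1%. The stretch of 30 bases with most pentamers is shown for the neighbours Ptgs2 and Pla2g4a, with ATTTA in capitals.
Ptgs2, from base 12 after the stop codon: ccatATTTATTTATTTAtgtgaagaATTTA
Pla2g4a, from base 370 after the stop codon: acactatttttATTTAaatgtttatATTTA

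Ptgs2 and Pla2g4a are next to each other among protein-coding genes of mouse chromosome 1 in the RefSeq table, and both were below WT in both DF508 libraries. On the other side of Ptgs2 the phototransduction gene Pdc was not listed in any library. Beyond Pla2g4a, Brinp3 had 5 counts in WT, 12 in DF508 replicate 1 and 10 in DF508 replicate 2, too few to set an order (log2 fold change 1.09, adjusted p = 0.697 in edgeR's quasi-likelihood test).

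The terminal synthases decide which prostaglandin is made. Ptges (gene ID 64292) encodes microsomal prostaglandin E synthase 1, the inducible enzyme that is usually coupled to cyclooxygenase 2. It had 179, 200 and 223 counts, or 33.8 CPM in WT, 38.2 CPM in DF508 replicate 1 and 42.5 CPM in DF508 replicate 2. Both DF508 libraries were above WT. The nearer, replicate 1, was 4.37 CPM above WT, and the DF508 libraries were 4.35 CPM apart. The ratio to WT was 1.13 in replicate 1 (exact 95% Poisson interval 0.918 to 1.39) and 1.26 in replicate 2 (1.03 to 1.54). The log2 fold change was 0.21 ± 0.15 (SE), with a 95% interval of -0.14 to 0.56, and did not pass (adjusted p = 0.669). Ptges and Ptgs2 therefore differed from WT in opposite directions in both DF508 libraries. The Ptges level per length was 0.367 times that of Ptgs2 in WT (exact 95% interval 0.308 to 0.435), 0.532 times in DF508 replicate 1 (0.447 to 0.63) and 0.855 times in DF508 replicate 2 (0.715 to 1.02). These 3 intervals did not overlap, including those of the DF508 libraries, so replicates of the same genotype differed beyond counting error too.

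Ptges2 (gene ID 96979), described as a further membrane-associated prostaglandin E synthase, had 60 counts in WT and 53 and 43 in DF508 replicates 1 and 2, or 11.3, 10.1 and 8.2 CPM. Both DF508 libraries were below WT, within overlapping counting intervals. Its log2 fold change of -0.35 ± 0.29 (SE) did not pass (adjusted p = 0.709). Ptges3 (gene ID 56351) had 74.2, 77.6 and 72.0 CPM, with WT between the DF508 libraries and a log2 fold change of -0.03 ± 0.12 (SE, adjusted p = 0.951), the smallest difference of the 9 genes and one whose sign changed with the scaling (0.01 with library totals). Its 95% interval of -0.29 to 0.23 was also the narrowest.

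Ptgis (gene ID 19223) encodes prostacyclin synthase, which makes the vasodilator prostacyclin. It had 48 counts in WT, 57 in DF508 replicate 1 and 74 in DF508 replicate 2, or 9.06, 10.9 and 14.1 CPM, with a DF508 mean of 12.5 ± 2.28 CPM (SD, n = 2). Both DF508 libraries were above WT, and replicate 2 was furthest. The ratio to WT was 1.2 in replicate 1 (exact 95% Poisson interval 0.803 to 1.8) and 1.56 in replicate 2 (1.07 to 2.29). The log2 fold change of 0.42 ± 0.29 (SE) had a 95% interval of -0.24 to 1.08 and did not pass (adjusted p = 0.645).

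Among the receptors, Ptgfr (gene ID 19220), the receptor for prostaglandin F2α that signals through calcium, was the most abundant of the 3. It had 38.0 CPM in WT, 36.9 CPM in DF508 replicate 1 and 34.8 CPM in DF508 replicate 2, a log2 fold change of -0.13 ± 0.15 (SE, adjusted p = 0.819), and its estimate shares reads with another gene or copy. Ptger4 (gene ID 19219) encodes EP4, which couples prostaglandin E2 to cAMP. It had 37 counts in WT, 27 in DF508 replicate 1 and 38 in DF508 replicate 2, so the gap within the DF508 pair exceeded that between WT and replicate 2. Its log2 fold change was -0.22 ± 0.39 (SE, adjusted p = 0.892), with a 95% interval from 0.467 to 1.59 of the WT level. Ptger2 (gene ID 19217), encoding EP2, which couples to cAMP as well, had 1 count in each library, an exact 95% Poisson upper bound of 1.05 to 1.06 CPM, and gives no fold.

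For 5 of the 9 genes tested, the 95% interval of the fold change lay within 2-fold of WT in either direction (Pla2g4a, Ptgs1, Ptges, Ptges3 and Ptgfr), and for 4 of these (all but Pla2g4a) within 1.5-fold. The intervals assume that WT cells vary as the DF508 pair does, which could not be checked with 1 WT library. For Ptgs2, Ptges2, Ptgis and Ptger4 the interval reached beyond 2-fold on one side.

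The rest of the pathway showed no gene past the threshold outside the regulators of Ptgs2. Of 16 tested genes of phospholipases and arachidonate release none passed in edgeR's quasi-likelihood test. An unadjusted p under 0.05 was seen for 2, where 11.9% of all genes tested had one. The most abundant were annexin A1, Anxa1, known as an inhibitor of phospholipase A2 (272, 265 and 259 FPKM in WT and DF508 replicates 1 and 2), and the lysophospholipid acyltransferase Lpcat3 (22.2, 22.3 and 18.1 FPKM). Of 10 other terminal synthases and reductases none passed, at the adjusted level or at an unadjusted p under 0.05, with the glutathione transferase Gstm2 (132, 123 and 135 FPKM) and the aldo-keto reductase Akr1b3, a prostaglandin F synthase (23.3, 30.1 and 28.1 FPKM), as the most abundant. The prostaglandin D synthase Ptgds was not listed in any library, and its haematopoietic counterpart Hpgds, named after its values were seen, had 1.3, 0.85 and 1.55 FPKM. Of 7 tested genes of transport and breakdown none passed at either level, with the degrading enzyme Hpgd at 18.7, 15.3 and 15.2 FPKM and the uptake carrier Slco2a1 at 12.4, 11.2 and 14.1 FPKM. DESeq2's Wald test, limma-voom and edgeR's likelihood ratio test called no gene of these 3 lists either. DESeq2's Wald test gave an adjusted p for 10, 6 and 6 of their 16, 10 and 7 tested genes. The median log2 fold changes of the 3 lists were -0.13, -0.12 and -0.01, against 0.01 over all genes.

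Of the list of 7 other prostanoid receptors and partners, 6 are described here whatever their values, and the EP1 gene Ptger1 is left out, which says nothing of its level. Of 5 tested in that list (with the receptor partner Ptgfrn) none passed by any of these tools or at an unadjusted p under 0.05. DESeq2's Wald test gave an adjusted p for 3 of the 5. Ptgfrn, a binding partner of the prostaglandin F2α receptor, had 15.6, 13.4 and 13.9 FPKM. The prostacyclin receptor Ptgir had 5.81, 5.02 and 6.04 FPKM and the thromboxane receptor Tbxa2r 3.04, 4.88 and 5.3 FPKM. The EP3 gene Ptger3 and the prostaglandin D receptor Ptgdr were listed in WT alone, at 0.09 and 0.06 FPKM, and Ptgdr2 had 0.43, 0.5 and 0.72 FPKM and overlaps another gene, Ccdc86, from which its reads cannot be told apart without strand.

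Transcription factors and RNA-binding proteins known to act on Ptgs2 or Ptges, a list that also holds the Hsp90 chaperones with which p23 works, were the group with genes that changed. Of 23 tested, 5 fell, none rose and 18 did not pass, where 0.9% of all genes tested fell and 0.489% rose (edgeR quasi-likelihood test). The list's median log2 fold change was -0.09, with 15 negative and 8 positive. The list was written with earlier results on immediate early genes in these libraries known, so its direction is not independent evidence.

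The genes that fell were the AP-1 subunits Jun, Fos and Jund, the C/EBP factor Cebpd and the RNA-binding Zfp36. Jun had 140 FPKM in WT and 74.2 and 51.4 FPKM in DF508 replicates 1 and 2 (2.31-fold lower, adjusted p = 0.0193). Like Ptgs2, it was lowest in DF508 replicate 2, as were Fos and Jund. Fos had 490, 313 and 282 FPKM (1.7-fold lower, adjusted p = 0.0112) and Jund 43.3, 28.1 and 26.1 FPKM (1.65-fold lower, adjusted p = 0.0208). Cebpd, the fifth by size and named after its values were seen, had 56.3, 33.2 and 38.5 FPKM (1.62-fold lower, adjusted p = 0.0333). Zfp36, which speeds the decay of AU-rich transcripts such as Ptgs2, had 262, 132 and 149 FPKM (1.92-fold lower, adjusted p = 0.00831). In Cebpd and Zfp36 DF508 replicate 1 was the lowest library, unlike in Ptgs2. With DF508 replicate 1 as the lone mutant library, the log2 values were -0.96 for Jun, -0.69 for Fos and -0.67 for Jund. They were -0.8 for Cebpd and -1.03 for Zfp36, all with no test. The myeloid marker sum of that library was also above WT (143 against 91.9 FPKM). The part of myeloid markers in these differences was not tested.

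Others of this list stood below WT in both DF508 libraries without passing. Nearest to the threshold were the hypoxia factor Hif1a, with 128, 96.5 and 96.1 FPKM (adjusted p = 0.0588), and Zfp36l1, a relative of Zfp36, with 111, 83.3 and 86.7 FPKM (adjusted p = 0.0873). Cebpb, whose product binds C/EBP sites, had 25.4, 19.4 and 14.9 FPKM (adjusted p = 0.237 in edgeR's quasi-likelihood test). Egr1, known to act on the Ptges promoter, had 431, 357 and 331 FPKM (adjusted p = 0.111 in the same test). Cebpb and Egr1 had the order of libraries seen in Ptgs2, as did Hif1a with DF508 libraries nearly level. The NF-kB subunits Nfkb1 and Rela had log2 fold changes of -0.03 and -0.12, and the stabilising protein Elavl1 of 0.11 (adjusted p = 0.962, 0.758 and 0.786 in edgeR's quasi-likelihood test). These 3 genes were named after their values were seen, as were Hif1a, Zfp36l1, Cebpb and Egr1. Limma-voom called the 5 genes that fell and Hif1a, and edgeR's likelihood ratio test called these 6 and Zfp36l1. Of the 5 genes, Fos and Zfp36 were also called with DESeq2's Wald test, and Jun, Jund and Cebpd were not (adjusted p = 0.444, 0.225 and 0.3). None of the 5 was called with library totals in place of TMM factors, without a filter on low counts or with limma on FPKM, where no gene at all was called.

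**Figure D4:**
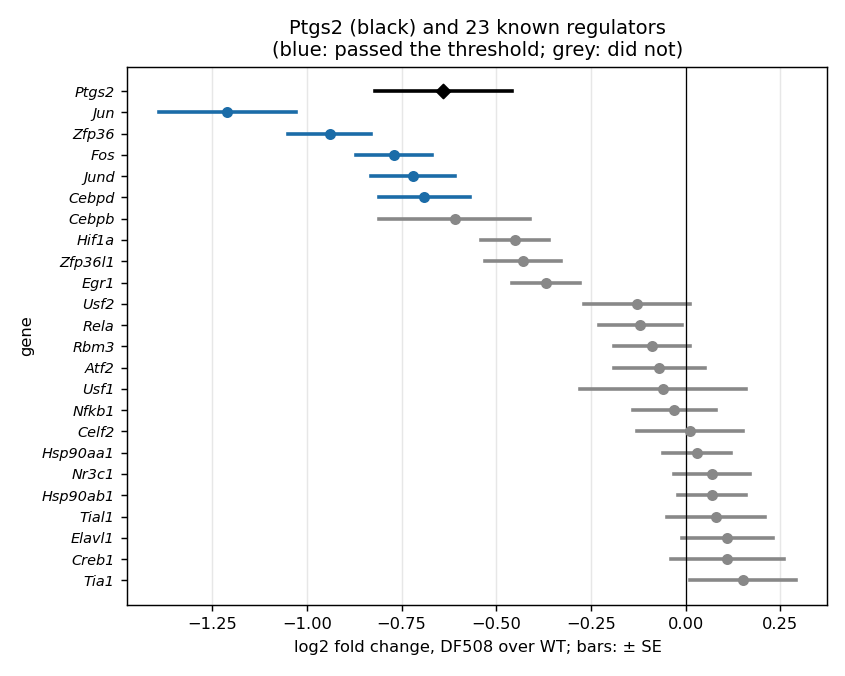
Fitted log2 fold change (DF508 over WT) with its SE for Ptgs2, black, and for the 23 genes of the regulator list, sorted by value. That list holds known regulators of Ptgs2 or Ptges and also the Hsp90 chaperones Hsp90aa1 and Hsp90ab1. Blue marks the 5 that passed the threshold and grey the 18 that did not; the 5 lie between -1.21 (Jun) and -0.69 (Cebpd), and Ptgs2 at -0.64.

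A neighbouring branch of arachidonic acid metabolism makes leukotrienes. Of its 10 tested genes none passed in edgeR's quasi-likelihood test, and 2 had an unadjusted p under 0.05, where 11.9% of all genes tested did. The most abundant, the leukotriene A4 hydrolase Lta4h and the glutathione transferase Mgst3, had 24.6, 21.3 and 25.1 FPKM and 10.6, 12.6 and 16.3 FPKM. DESeq2's Wald test gave an adjusted p for only 2 of the 10 and called neither. Limma-voom called none, and edgeR's likelihood ratio test called Alox5ap and the leukotriene-converting peptidase Dpep2 as higher. Alox5ap, the protein that presents arachidonic acid to 5-lipoxygenase and a gene typical of myeloid cells, was named after its values were seen. It had 0.67 FPKM in WT, 4.05 in DF508 replicate 1 and 11.9 in DF508 replicate 2 (log2 fold change 3.48 ± 0.92 SE, adjusted p = 0.149 in edgeR's quasi-likelihood test). Of 16 tested myeloid markers, 14 were above WT in both DF508 libraries, where 43.3% of all genes tested were. Ptprc and Lyz1 had WT between the DF508 libraries. Among the markers Lyz2 had 57.2, 82.3 and 390 FPKM, Cd68 4.79, 8.52 and 36.0 FPKM and Csf1r 1.55, 2.25 and 11.1 FPKM. All 16 tested myeloid markers had a positive fold change. None of them passed in edgeR's quasi-likelihood test, limma-voom or DESeq2's Wald test, which gave an adjusted p for 9 of the 16. In the first, 11 had an unadjusted p under 0.05, where 11.9% of all genes tested did. The likelihood ratio test of edgeR called 4 (Adgre1, C1qc, Ctss and Fcer1g). Their part in the Alox5ap levels was not tested.

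**Figure D5:**
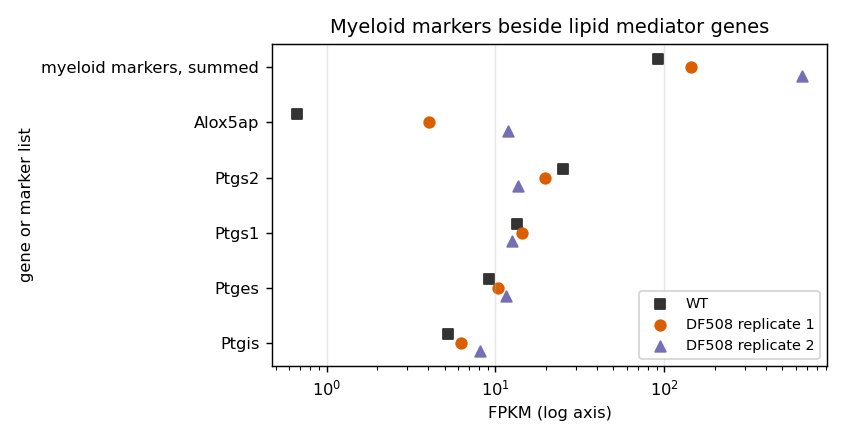
FPKM on a log axis of the summed macrophage and myeloid markers, of Alox5ap and of 4 prostaglandin genes in each library (squares WT, circles DF508 replicate 1, triangles DF508 replicate 2). The marker sum runs from 91.9 to 655 FPKM and Alox5ap from 0.67 to 11.9 FPKM with DF508 replicate 2 highest, whereas Ptgs2 runs from 25.1 down to 13.6 FPKM.

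The genes most like Ptgs2 across the libraries were sought among the 10951 genes that averaged 5 CPM or more, by the distance between their pairs of log2 differences from WT. The nearest were the zinc finger gene Zscan20 (distance 0.0618), the uncharacterised C030037D09Rik (0.0738) and the short-chain collagen gene Col8a1 (0.0772), and 5 genes lay within 0.1. Col8a1, some of whose reads also fit elsewhere, was at 388 CPM in WT, 316 CPM in DF508 replicate 1 and 217 CPM in DF508 replicate 2. The others had fewer counts, 7.74, 6.3 and 4.19 CPM for Zscan20 and 6.98, 5.72 and 3.81 CPM for C030037D09Rik. With 3 libraries a likeness rests on 2 differences, and none of these genes passed the threshold (edgeR quasi-likelihood test, adjusted p = 0.63, 0.663 and 0.213).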

How the data were processed

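Poly(A) RNA of 1 WT and 2 DF508 libraries was sequenced. Bowtie, RSEM and the build mm9 are named, per the submitters' processing notes, without versions or the use of strand. Each deposited table holds, per the file headers, the expected count (RSEM's estimated count, not normalized), the FPKM and the gene length. FPKM as deposited by the authors equalled the count per kilobase scaled to the library total, with a median ratio of 1.001 in each library. A gene missing from a table was set to 0.

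Expected counts were rounded. IDs were matched to a RefSeq table of GRCm38.p6 (16579 of 16621); only names, gene order, overlaps and promoter windows come from that build, and no coordinate was transferred. Genotype was tested with edgeR 4.0.16 (quasi-likelihood, TMM, filterByExpr, genotype the sole term; 1 residual and 7.7 prior degrees of freedom; Benjamini-Hochberg over all genes; limma 3.58.1 and DESeq2 1.42.0 for alternatives, R 4.3.3). Fitted fold changes use TMM factors of 0.98, 1.009 and 1.012, whereas CPM uses library totals. The SE is the log2 fold change over the square root of F. Ratio intervals are exact, from the binomial split of the counts. A count of 0 allows 3 counts, or 0.566 to 0.572 CPM. The tests were checked on simulated counts. Named were all 10 genes and, from each pathway list, up to 4 past the threshold or else 2 by mean FPKM; others, the fifth regulator past the threshold included, are said to be chosen later. Members and lists were chosen with earlier results of these data known. Alternatives were size factors, library totals, upper-quartile factors, no filter, at least 50 counts, other tests, limma on FPKM, and each DF508 library left out. 1 listed receptor gene is not reported here.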

Additional observations from a re-analysis of the deposited data

How the results depend on the processing

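Of 98 fold changes of the 9 genes under 11 alternatives, 92 kept their direction and stayed short of the threshold, 5 changed sign and 1, Ptgs2 in edgeR's likelihood ratio test, passed it. Ptges2 and Ptger4 had no adjusted p in DESeq2's Wald test and are counted among the 92. The sign changes were of values near 0: Ptgs1 was 0.00058 with library totals, and Ptges3 was 0.01 with library totals and in the 3 fits on FPKM. The cause was not tested. The counts of genes called depended on the model. Against 179 genes in the edgeR quasi-likelihood test, 0 were called with library totals, 0 without a filter, 0 in each limma fit on log2 FPKM (pseudocount 1 or 0.1, and 1 with no filter), 63 with DESeq2's Wald test and 403 with the likelihood ratio test. At an unadjusted p under 0.05 the settings with 0 calls had 1262, 1123, 1145, 1159 and 1615 genes. Of the 10 genes, 1 was called in the likelihood ratio test. Of the other pathway genes, against 5, there were 0 with library totals, no filter and FPKM, 2 with DESeq2's Wald test and 10 with the likelihood ratio test. With 1 DF508 library left out there is no test, and log2 values ranged from -0.93 to 0.59; Ptgs2 was -0.93 without replicate 1 and -0.4 without replicate 2, and Ptger4 was 0.01 and -0.48. No paired analysis was possible because WT has 1 library. Ptger4 was not tested at a minimum mean of 50 counts, and Ptger2 was tested only without a filter. Depth limits Ptger2, at 1 count in each library, and Ptger4, at 27 to 38 counts.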

Other observations

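The receptors EP2 and EP4 signal through cAMP, and transcripts of that relay were present in every library. The G protein subunit gene Gnas had 726, 738 and 767 FPKM in WT and DF508 replicates 1 and 2, and the protein kinase A regulatory subunit Prkar1a had 74.0, 75.3 and 64.2 FPKM. Of 29 tested genes of this list none passed in edgeR's quasi-likelihood test or in DESeq2's Wald test, which gave an adjusted p for 23. In the first, 6 had an unadjusted p under 0.05, where 11.9% of all genes tested did. The median log2 value over these genes was 0.06, and 17 were positive and 12 negative. Prkar2b, another regulatory subunit, named after its values were seen, had 28.0 FPKM in WT and 51.5 and 41.9 FPKM in the DF508 libraries (1.62-fold higher, adjusted p = 0.0629 in edgeR's quasi-likelihood test), and was called by limma-voom and edgeR's likelihood ratio test.

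Of 12 tested tendon and fibroblast markers, 1 (Dcn, adjusted p = 0.0417) rose and none fell in edgeR's quasi-likelihood test. Over all genes tested, 0.489% rose and 0.9% fell. DESeq2's Wald test, limma-voom and edgeR's likelihood ratio test called Dcn and Lum as higher. No tendon marker was called with library totals, without a filter or with limma on FPKM. Markers of endothelial, mast and epithelial cells were low. Of 9 endothelial markers 5 (Pecam1, Cdh5, Cldn5, Emcn and Tie1) were listed in no library, with a summed level of 4.68 to 6.73 FPKM. Of 6 mast cell markers 3 were listed in no library, with a sum of 0.04 to 0.54 FPKM. Of 9 epithelial and keratinocyte markers 5 were listed in no library, with a sum of 1.12 to 2.38 FPKM. Smooth muscle and pericyte markers had a sum of 383 FPKM in WT and 783 and 793 FPKM in DF508 replicates 1 and 2. Of 11 tested, 5 rose in edgeR's quasi-likelihood test (Acta2, Cnn1, Lmod1, Mustn1 and Tagln), where 0.489% of all genes tested did. None was called with library totals, without a filter or with limma on FPKM. Pdgfrb and Mcam had a negative fold change and the other 9 a positive one. Myh11 (0.17 to 0.4 FPKM) and Des (0.35 to 0.88 FPKM) were low. Smooth muscle is a known site of Ptgis expression. Whether such cells, if present, or the markers that rose had a part in the Ptgis levels was not tested.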
